A study of Mus musculus with 15 samples.

Results

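The livers of 3 mice fed a high-fat diet with caffeinated coffee (HFCC group) were compared with the livers of 3 mice fed a normal diet (ND group). These 6 arrays were chosen by their titles from the 15 arrays of a study of coffee in a high-fat diet. All mice were male C57BL/6J, an inbred strain that becomes obese on fatty food, and were 7 weeks old when the 9 weeks of feeding began. The HFCC group received 60% of its energy as fat, with 2% of freeze-dried caffeinated coffee in the diet, and the ND group received 10% of its energy as fat and no coffee. The other groups, of 3 mice each, were fed the same high-fat diet with 2% of decaffeinated coffee (HFDC), with 2% of green, unroasted caffeinated coffee (HFGC), or with no coffee (HF). RNA of each mouse was put on its own Affymetrix array of the mouse genome, and the 3 mice per group had been picked at random from larger groups. The HFCC and ND feeds differ in fat and in coffee at the same time, so the effects of fat and of coffee cannot be told apart in this comparison. The fit left out the HF arrays, whose controls for RNA length stood highest, and the HF group is brought in only where it is named.

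The liver makes cholesterol from acetyl-CoA through mevalonate and squalene, and the genes of these enzymes are switched on together by the transcription factor SREBP-2, which INSIG proteins hold back in the endoplasmic reticulum when sterols are plentiful. The same compartment folds the proteins that the liver secretes, and the unfolded protein response raises its chaperones when the load of unfolded protein grows. The nuclear receptors CAR and PXR switch on cytochromes P450 and other genes that handle drugs and steroids, and PPARa switches on genes that oxidize fatty acids.

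The deposited values are intensities from robust multi-array averaging (RMA), and their log2 was taken, so that 1 unit is a doubling. The array medians lay between 48.45 and 49.95. RNA length was judged by control probes along Gapdh and Actb, as the log2 signal at the 3' end minus that at the 5' end, averaged over both genes. It was 1.07, 0.87 and 0.84 on the HFCC arrays and 0.83, 0.84 and 0.95 on the ND arrays. The groups overlapped, and the difference of 0.05 did not pass an exact two-sided permutation test (p = 0.6, where 3 arrays against 3 allow no p below 0.1). The HF group averaged 1.22 ± 0.17 (SD, n = 3). The 12 measured hepatocyte markers summed to between 183511 and 186782 on the HFCC arrays and between 180195 and 186695 on the ND arrays, and limma called 0 of them (2 at an unadjusted p under 0.05). In bulk tissue, fewer cells of a type and less RNA per cell cannot be told apart. The first principal component of the HFCC, HFDC, HFGC and ND arrays held 27% of the variance. On it the HFCC arrays lay between 10.3 and 11.8, the HFGC arrays between 4.93 and 8.59, the HFDC arrays between -0.63 and -0.08 and the ND arrays between -22.2 and -13.2.

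Of 18193 genes, 415 (2.28%) were called at an adjusted p under 0.05 by limma, 257 of them higher in the HFCC group (1.41%) and 158 lower (0.868%). The fit held the HFCC, HFDC, HFGC and ND arrays, which gave 8 residual degrees of freedom, and the Benjamini-Hochberg adjustment ran over the whole set of genes. Over all 34945 probe sets of 1 gene each, in place of 1 probe set per gene, 595 were called (1.70%). The 3 HFCC arrays did not overlap the 3 ND arrays in 3638 genes, which is 20.0% of all. Counts of called members, and of members without overlap, in the gene lists below are to be read against these shares of all genes. In counts over a gene list, rose and fell mean called higher and called lower. Standard errors had a median of 0.0888. The number of calls changed when 1 of these arrays was left out. It was 104 without HFCC replicate 1, 104 without HFCC replicate 2 and 134 without HFCC replicate 3. Without ND replicates 1, 2 and 3 in turn it was 169, 470 and 251. The cause was not tested, and a fit with fewer arrays also has fewer degrees of freedom. Leaving out each of the 12 arrays in turn, 66 of the 415 genes were called every time, 51 of them higher and 15 lower in the HFCC group. Each fold change below is HFCC over ND on the log2 scale unless 2 other groups are named, each level is a log2 intensity, and each adjusted p comes from this limma fit.

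**Figure D1:**
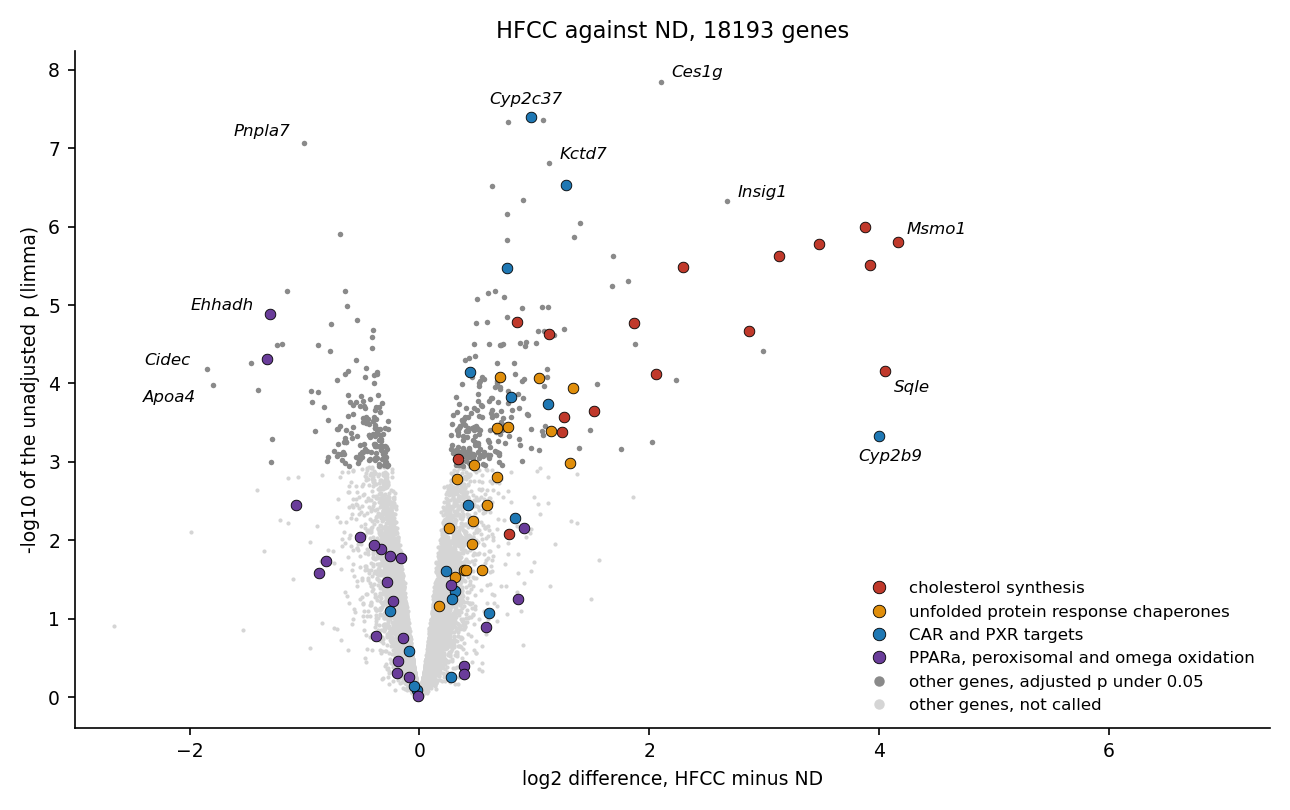
Each point is 1 of 18193 genes. The x axis gives the log2 difference HFCC minus ND and the y axis the negative log10 of the unadjusted p from limma; dark grey points were called at an adjusted p under 0.05, light grey points were not, and colours mark 4 gene lists. Msmo1 of cholesterol synthesis lies farthest to the right at 4.16, and 8 of the 12 largest called increases, ranked without symbols of clones, belong to this list.

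Cholesterol synthesis held 8 of the 12 largest called increases, ranked without symbols of clones. Of its 17 measured genes, 16 rose in the HFCC group and 0 fell, and the HFCC arrays lay above the ND arrays in all 17. Their median log2 difference was 2.06, against -0.0046 over all genes. Of the 16 calls, 10 stood in each fit that left out 1 array, and 10 members were called without HFCC replicate 1 and likewise without HFCC replicate 3.

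Msmo1, a methyl sterol oxidase that removes methyl groups on the way from lanosterol to cholesterol, had levels of 12.48, 11.64 and 12.39 on the HFCC arrays, against 8.06, 8.03 and 7.93 on the ND arrays. HFCC replicate 2 was the lowest of its group and still stood 3.58 units above the highest ND array. The rise was 4.16 (standard error 0.49, 17.9-fold, adjusted p = 0.0017). Idi1, which isomerizes the isoprene building block, was at 12.21, 11.42 and 12.12 in the HFCC group and at 7.68, 7.96 and 8.34 in the ND group. Again no arrays overlapped, HFCC replicate 2 was lowest, and the rise was 3.92 (standard error 0.49, 15.2-fold, adjusted p = 0.0027). Fdps, which makes farnesyl pyrophosphate, was at 11.15, 10.07 and 11.02 in the HFCC group and at 7.05, 6.82 and 6.74 in the ND group. It rose by 3.88 (standard error 0.44, adjusted p = 0.0014). A further Fdps probe set was dim, with mean levels of 2.55 in the HFCC group and 2.61 in the ND group, and was not called in the limma fit over all probe sets (adjusted p = 0.81). In that fit the further probe set of Msmo1 rose by 3.01 (adjusted p = 0.011) and that of Idi1 by 5.38 (0.0014).

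The steps before squalene otherwise gave Hmgcs1, the synthase that commits acetyl units to the pathway, with 13.24, 12.47 and 12.98 on the HFCC arrays and 10.40, 9.72 and 9.96 on the ND arrays. It rose by 2.87 (standard error 0.43, adjusted p = 0.0081), and 5 of its 5 probe sets were called higher, by up to 5.18. Mvd, which decarboxylates mevalonate diphosphate, had levels of 9.48, 8.39 and 9.10 in the HFCC group and 5.86, 5.62 and 6.10 in the ND group, a rise of 3.13 (standard error 0.38, adjusted p = 0.0022). The kinases of mevalonate rose less. Mvk rose by 1.13 (adjusted p = 0.0087) and Pmvk by 1.25 (adjusted p = 0.027), and the call of Pmvk was lost without any 1 of 5 arrays (HFCC replicates 1 and 3 and each ND replicate, adjusted p up to 0.1). Fdft1, which joins farnesyl units into squalene, rose by 2.06 (adjusted p = 0.016), a call that was lost without HFCC replicate 1 (0.071) or HFCC replicate 3 (0.054).

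From squalene onward, Sqle, the squalene epoxidase, had levels of 10.82, 9.65 and 10.56 on the HFCC arrays and 6.42, 6.01 and 6.44 on the ND arrays. No arrays overlapped, and the rise was 4.06 (standard error 0.69, 16.6-fold, adjusted p = 0.016), although the call was lost without HFCC replicate 1 (adjusted p = 0.068) or HFCC replicate 3 (0.052). Cyp51, the lanosterol demethylase, was at 10.17, 9.37 and 10.03 in the HFCC group and at 6.77, 6.31 and 6.05 in the ND group, a rise of 3.48 (standard error 0.41, adjusted p = 0.0017). Lss, which closes the sterol rings, rose by 1.86 (adjusted p = 0.0073), and Nsdhl, which works beside Msmo1, rose by 2.29 (adjusted p = 0.0027). The later steps rose less than Cyp51. Sc5d rose by 0.85 (adjusted p = 0.0073), Dhcr7 by 1.52 (0.026), Hsd17b7 by 1.24 (0.032) and Ebp by 0.33 (0.044). The last 3 calls were lost in 4, 6 and 9 of the 12 fits that left out 1 array, with adjusted p up to 0.098, 0.105 and 0.14. Tm7sf2, a sterol reductase, was the member not called, with a difference of 0.78 (adjusted p = 0.13).

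**Figure D2:**
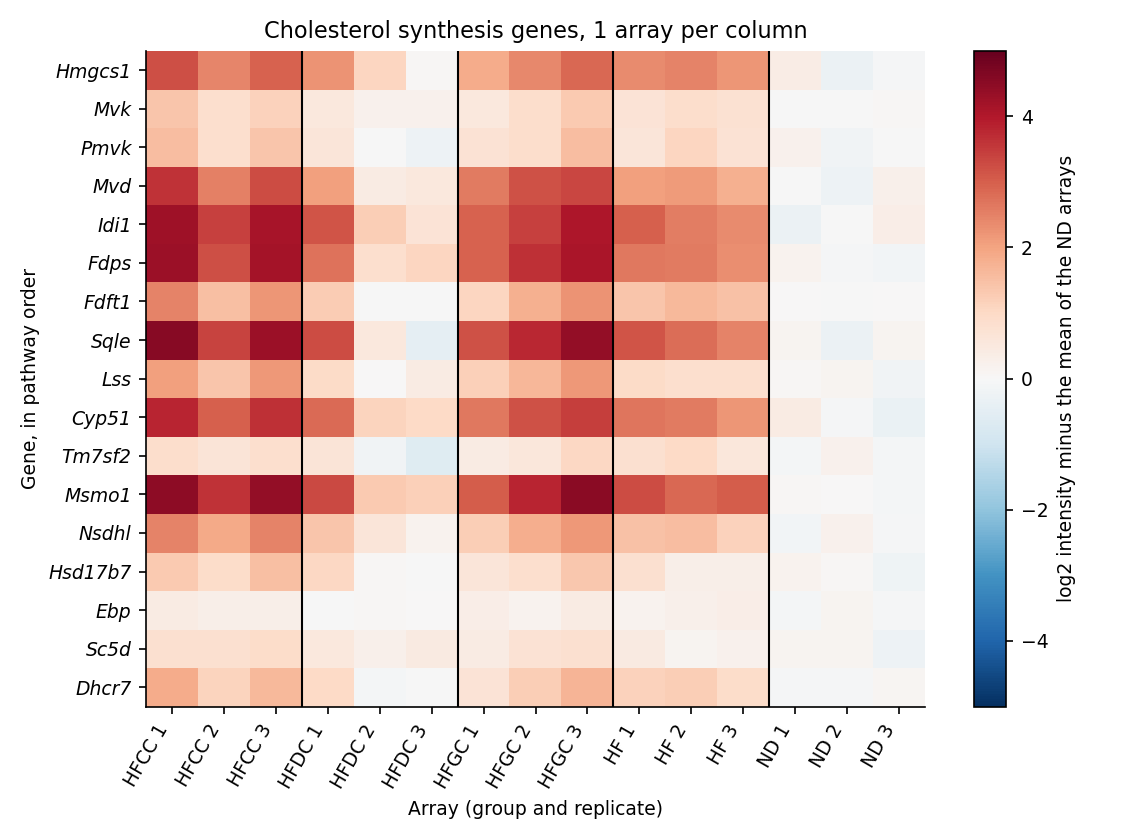
Each column is 1 array and each row 1 of the 17 measured genes of cholesterol synthesis, in pathway order; the colour gives the log2 intensity minus the mean of the 3 ND arrays. All 3 HFCC columns are red in every row, HFCC replicate 2 is the palest of them in 16 of 17 rows, and HFDC replicate 1 is the highest HFDC array in 16 of 17.

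The mice of the HFCC group were graded along this pathway as a whole. HFCC replicate 1 was the highest HFCC array in 14 of the 17 genes and HFCC replicate 2 the lowest in 16. The HFGC arrays were graded too, with HFGC replicate 3 highest in 17 and HFGC replicate 1 lowest in 16. The members are read from the same arrays, so such counts are not independent of each other. The HFCC group had the highest mean of all 5 groups in 16 of the 17 genes, and its mean was above that of the HFGC group in all 17. HFCC minus HFGC had a median of 0.31 over the list, and limma called 0 members (0 at an unadjusted p under 0.05), as it called 0 of all genes (485 at an unadjusted p under 0.05). HFCC minus HFDC had a median of 1.57 with 0 members called, and 0.0440% of all genes were called. An unadjusted p under 0.05 was reached by 17 of 17 members and by 1502 of all 18193 genes, and the lowest HFCC array lay above the highest HFDC array in 15 of 17 members and in 7.18% of all genes. HFCC minus HF, in a fit of all 15 arrays that called 298 genes (1.64%), 69 higher (0.379%) and 229 lower (1.26%), had a median of 0.78 and 1 called member, Sc5d, with a difference of 0.58 (adjusted p = 0.038), lost with the 3' minus 5' value added to the fit (0.51) and without HF replicate 2 or 3 or any HFCC replicate (0.0877 to 0.193). These comparisons share the HFCC arrays with the one against ND.

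Outside the pathway, Insig1 and Stard4 rose. Insig1, whose protein holds SREBP in the endoplasmic reticulum and which is itself an SREBP target, had levels of 12.08, 11.26 and 11.85 on the HFCC arrays, against 9.06, 9.08 and 9.01 on the ND arrays. The ND arrays were close together, the HFCC arrays were all above them, and the rise was 2.68 (standard error 0.28, 6.41-fold, adjusted p = 0.00087). Stard4, which carries cholesterol between membranes, was at 10.44, 10.00 and 10.51 in the HFCC group and at 8.68, 9.22 and 8.87 in the ND group, and rose by 1.39 (adjusted p = 0.0014). Both were called in each fit that left out 1 array, and they were the 2 called of 15 measured genes of sterol sensing and uptake, whose median was 0.05. Srebf2, which encodes SREBP-2, differed by 0.29 and was not called (adjusted p = 0.25), while its other, dimmer probe set rose by 1.14 (0.0112 in the fit over all probe sets). Insig2 differed by -0.32 (adjusted p = 0.52). Acsl3, an acyl-CoA synthetase of lipid droplets, rose by 1.68 (adjusted p = 0.0041), Rdh11, a retinal reductase, by 1.81 (0.0038) and Erg28, a scaffold of sterol enzymes, by 1.12 (0.0057). These 3 were chosen after their values were seen. Ccdc25 and Mfsd2a, a carrier of lysophospholipids, were among the 12 largest increases, with 2.99 (adjusted p = 0.011) and 2.23 (adjusted p = 0.017). The call of Ccdc25 was lost without HFCC replicate 1 (0.051), and that of Mfsd2a without HFCC replicate 2 (0.062) or ND replicate 1 (0.054).

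Promoters of genes that rose together are shown because the members share short motifs that the choice of the list did not use. The windows are 300 bases long, lie mostly upstream of each start site and come from RefSeq, build GRCm38.p6. All motifs were searched on both strands. Of the 16 sterol genes called higher, 13 had a window in the table, and 13 of 13 held CCAAT, as did 42.0% of the 14452 measured genes with a window. CCAAT is the box bound by NF-Y, a factor known to work beside SREBP. The sterol element of the LDL receptor promoter was found in 0 of 13, against 0.0623% of all genes, and its core CACCCCAC, searched after the data were seen, in 1 of 13, Hmgcs1, against 3.76% of all. The E-box CACGTG was found in 3 of 13 (23.1%) and in 10.2% of all. The windows of Msmo1 (chr8:64733529-64733828, minus strand), Hmgcs1 (chr13:119690101-119690400, plus strand) and Idi1 (chr13:8885356-8885655, plus strand) follow, with each CCAAT, read on either strand, in capitals, and in Hmgcs1 the sterol core as well.
Msmo1: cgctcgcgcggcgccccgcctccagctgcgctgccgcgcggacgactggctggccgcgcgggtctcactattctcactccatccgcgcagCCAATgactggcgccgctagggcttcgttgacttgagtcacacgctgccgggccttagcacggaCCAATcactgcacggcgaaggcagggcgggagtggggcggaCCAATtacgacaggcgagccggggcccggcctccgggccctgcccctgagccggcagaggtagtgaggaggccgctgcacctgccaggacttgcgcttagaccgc
Hmgcs1: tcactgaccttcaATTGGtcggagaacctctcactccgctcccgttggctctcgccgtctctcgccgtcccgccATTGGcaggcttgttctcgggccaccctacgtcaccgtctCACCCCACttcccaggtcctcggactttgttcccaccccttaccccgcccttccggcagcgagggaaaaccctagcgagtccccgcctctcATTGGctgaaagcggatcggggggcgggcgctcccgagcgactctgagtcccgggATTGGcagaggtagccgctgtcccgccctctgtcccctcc
Idi1: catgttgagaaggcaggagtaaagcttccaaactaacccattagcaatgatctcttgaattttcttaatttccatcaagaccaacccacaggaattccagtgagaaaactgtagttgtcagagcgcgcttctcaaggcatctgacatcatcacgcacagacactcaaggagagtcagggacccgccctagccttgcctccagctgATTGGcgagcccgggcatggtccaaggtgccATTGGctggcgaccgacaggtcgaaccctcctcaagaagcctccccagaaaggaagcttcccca
Msmo1 held 3 copies of CCAAT, Hmgcs1 4 and Idi1 2. A match is a description of these letters and not a measured site of binding.

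Chaperones of the endoplasmic reticulum rose in the HFCC group. Of 19 measured genes of the unfolded protein response, 8 rose and 0 fell, all 19 differences were above 0, and their median was 0.55. The HFCC and ND arrays did not overlap in 15 of the 19. The number of members called changed when 1 array was left out. It was 0 without HFCC replicate 1, without HFCC replicate 2 and without ND replicate 1. It was 3 without HFCC replicate 3, 5 without ND replicate 2 and 8 without ND replicate 3. Whether the mouse left out or the smaller number of arrays made the difference was not tested.

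Creld2, a secreted chaperone of this response, had levels of 12.13, 12.02 and 11.81 on the HFCC arrays and 10.54, 10.62 and 10.78 on the ND arrays. The nearest arrays of the groups were 1.03 units apart, and the rise was 1.34 (standard error 0.24, adjusted p = 0.019), lost without HFCC replicate 1 (0.08), HFCC replicate 2 (0.073) or ND replicate 1 (0.059). Dnajb9, a co-chaperone that helps to clear misfolded proteins, was at 12.07, 12.15 and 12.05 in the HFCC group and at 10.78, 11.43 and 10.94 in the ND group, a rise of 1.04 (standard error 0.18, adjusted p = 0.017), lost without the same arrays (0.06, 0.067 and 0.054). The HFCC arrays spanned 0.1 units, while ND replicate 2 stood above its group. Sel1l and Syvn1, the adaptor and the ubiquitin ligase that remove misfolded proteins, rose by 0.70 (adjusted p = 0.016) and 1.14 (0.031). Sdf2l1 rose by 1.31 (0.047), Manf, a secreted stress protein, by 0.77 (0.031) and Herpud1 by 0.68 (0.031). Hspa5, the main chaperone of this compartment, had levels of 13.93, 13.97 and 13.87 on the HFCC arrays and 13.36, 13.33 and 13.67 on the ND arrays. It rose by 0.48 (standard error 0.11, adjusted p = 0.049), with no overlap, and the call was lost in 10 of the 12 fits that left out 1 array (adjusted p up to 0.15). Pdia4, a disulphide isomerase, differed by 0.68 and was not called (adjusted p = 0.057), nor was Xbp1, which encodes a transcription factor of the response, with 0.17 (adjusted p = 0.33).

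Against the other high-fat groups no chaperone was called. HFCC minus HF had a median of 0.386 with 0 members called by limma (12 at an unadjusted p under 0.05), and the lowest HFCC array lay above the highest HF array in 15 of 19, against 7.50% of all genes. HFCC minus HFDC had a median of 0.162 with 0 called (4), and HFCC minus HFGC a median of 0.002 with 0 called (0). The ND group had the lowest mean of the 5 groups in 17 of the 19 genes, the HFGC group the highest in 9 and the HFCC group the highest in 8.

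The promoters of these chaperone genes held the same CCAAT box, in 7 of 7 called members with a window. The endoplasmic reticulum stress element, which is CCAAT followed after 9 bases of any kind by CCACG and was searched after the data were seen, was found in 3 of the 7 (42.9%), Hspa5, Creld2 and Syvn1, and in 0.138% of all 14452 genes. It contains the CCAAT box, so the counts of both overlap. The windows of Creld2 (chr15:88819396-88819695, plus strand) and Hspa5 (chr2:34771840-34772139, plus strand) are given with each CCAAT and the other end of the element in capitals, read on either strand.
Creld2: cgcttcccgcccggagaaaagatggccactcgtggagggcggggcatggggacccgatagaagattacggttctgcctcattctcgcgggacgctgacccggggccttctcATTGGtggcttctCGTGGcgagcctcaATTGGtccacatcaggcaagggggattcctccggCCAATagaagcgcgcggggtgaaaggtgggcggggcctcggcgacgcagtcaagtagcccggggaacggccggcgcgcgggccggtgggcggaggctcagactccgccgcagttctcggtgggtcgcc
Hspa5: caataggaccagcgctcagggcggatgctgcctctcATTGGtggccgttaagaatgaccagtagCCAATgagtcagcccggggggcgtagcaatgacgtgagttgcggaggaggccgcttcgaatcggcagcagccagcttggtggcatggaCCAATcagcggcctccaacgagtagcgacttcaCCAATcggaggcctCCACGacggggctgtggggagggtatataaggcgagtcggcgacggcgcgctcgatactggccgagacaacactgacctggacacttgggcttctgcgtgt
Creld2 held 3 copies of CCAAT and Hspa5 4, and each held 1 copy of the whole element.

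Atf4, the transcription factor of the integrated stress response, had levels of 11.16, 10.88 and 10.85 on the HFCC arrays and 9.95, 10.15 and 10.09 on the ND arrays. The groups were apart, and the rise was 0.90 (standard error 0.09, adjusted p = 0.00087) and held in each fit that left out 1 array. In the fit over all probe sets 2 of its 3 were called higher. Of the 19 measured genes of the ATF4 list, Atf4 was the 1 called higher. Differences were above 0 in 17 of them, and the median was 0.10. Slc7a11, the cystine carrier, fell by 0.34 (adjusted p = 0.036, lost in 8 of the 12 fits that left out 1 array), and Ddit3, known as CHOP, differed by 0.85 without a call (adjusted p = 0.12). HFCC minus HF gave 0.51 for Atf4 (adjusted p = 0.033), lost without HF replicate 2 or 3 or any HFCC replicate (up to 0.173) and with the 3' minus 5' value added to the fit (0.39).

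Cytochromes P450 of the CAR and PXR list formed a further group, with 7 of 18 measured genes called higher, 0 called lower and a median of 0.43. The count was 3 without HFCC replicate 2, 4 without HFCC replicate 1, 4 without ND replicate 1 and 3 when the HFCC and ND arrays were fitted alone. Cyp2c37 had levels of 12.63, 12.71 and 12.53 on the HFCC arrays and 11.51, 11.80 and 11.63 on the ND arrays. The nearest arrays of the groups were 0.73 units apart, and the rise was 0.97 (standard error 0.08, adjusted p = 0.00021). Cyp2c54, with 13.01, 12.90 and 12.86 in the HFCC group and 11.36, 11.98 and 11.62 in the ND group, rose by 1.27 (standard error 0.13, adjusted p = 0.0007). Cyp2c50 rose by 0.76 (adjusted p = 0.0027), and these 3 calls held in each fit that left out 1 array. Cyp2c38 rose by 1.12 (adjusted p = 0.024), Cyp2b10, the usual reporter of CAR in mouse liver, by 0.79 (0.022; 2.10 and 1.79 in its other probe sets) and Cyp2c29 by 0.44 (0.016), and these calls were lost without 3, 3 and 2 of the 12 arrays, with adjusted p up to 0.09, 0.085 and 0.064. Genes of the Cyp2b and Cyp2c families are near copies of each other, so a probe set can pick up a relative. HFCC minus HF had a median of 0.193 over the list with 1 called member, Cyp2c37 with 0.36 (adjusted p = 0.04), lost without HF replicate 2 or 3 or any HFCC replicate (0.0939 to 0.182), with the HFCC and HF arrays alone (0.0963) and with the 3' minus 5' value in the fit (0.458). HFCC minus HFDC had a median of 0.276 with 0 called by limma (9 at an unadjusted p under 0.05) and HFCC minus HFGC a median of 0.084 with 0 called (1).

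Cyp2b9, which in mice is normally higher in female than in male liver, had levels of 8.71, 11.01 and 7.04 on the HFCC arrays and 4.82, 4.90 and 5.04 on the ND arrays. The HFCC mice spread over 3.97 units, with HFCC replicate 2 highest, and all of them were above the ND arrays. The rise was 4.0 (standard error 0.85, adjusted p = 0.033). It was lost without HFCC replicate 1 (0.098), HFCC replicate 2 (0.1) or any ND replicate (0.063 to 0.084). By group it averaged 8.92 ± 1.99 in HFCC, 6.66 in HFDC, 8.13 in HFGC, 9.60 ± 0.68 in HF and 4.92 ± 0.11 in ND (SD, n = 3 each). Cyp2b13, a close relative, differed by 0.60 (adjusted p = 0.36), with HFCC replicate 2 at 7.55 and the other HFCC arrays at 6.00 and 5.83, against 5.68, 5.91 and 6.00 in the ND group. The receptors did not pass the test, with 0.31 for Nr1i3, which encodes CAR (adjusted p = 0.27), and 0.23 for Nr1i2, which encodes PXR (adjusted p = 0.21). Cyp3a11, the usual reporter of PXR, differed by -0.09 (adjusted p = 0.59).

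Of 20 glutathione S-transferases, which couple glutathione to reactive molecules, 5 rose and 0 fell, with a median of 0.36. The count was 2 without HFCC replicate 1, without HFCC replicate 2 or without ND replicate 3, 3 without HFCC replicate 3 or without ND replicate 2, and 2 with the HFCC and ND arrays alone. Gsta3 was at 13.11, 13.28 and 13.20 in the HFCC group and at 12.39, 12.63 and 12.37 in the ND group, a rise of 0.73 (standard error 0.10, adjusted p = 0.0048). Mgst3 rose by 0.92 (adjusted p = 0.0094), and both were called in each fit that left out 1 array. Gstm3 rose by 0.73 (0.027), Gstt1 by 0.59 (0.042) and Gstm1 by 0.43 (0.031), each lost without 4 or more arrays. Mgst1 differed by -0.04 and was not called, while its other, dimmer probe set fell by 0.51 (0.038 in the limma fit over all probe sets). The Gstm genes, like the Gsta genes, share near-identical sequence, and their probe sets may pick up each other. Cyp1a2, the main enzyme of caffeine breakdown and a target of the receptor AhR, had levels of 12.03, 12.01 and 12.18 on the HFCC arrays, against 11.33, 11.50 and 11.59 on the ND arrays. The groups were 0.42 units apart at their nearest arrays, and the rise was 0.60 (standard error 0.08, 1.51-fold, adjusted p = 0.0043). It was the 1 called of 9 measured genes of the AhR pathway, whose median was -0.04. Its mean was 12.07 in HFCC, 11.90 in HFDC, 11.96 in HFGC and 12.05 in HF, against 11.47 in ND. Of 20 sulfotransferases and glucuronosyltransferases, Sult1b1 rose by 1.11 (adjusted p = 0.015, lost without HFCC replicate 1 or 2) and Ugdh by 0.62 (0.04, lost without any 1 of 7 arrays). Of 25 NRF2 targets, Aox1 rose by 0.61 (0.042, lost without any 1 of 8 arrays) and Slc7a11 fell, as given above. Of 18 genes of adenosine and purines, Nt5e, which makes adenosine from AMP, rose by 1.29 (0.046), a call lost without any 1 of 9 arrays (adjusted p up to 0.16).

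Ces1g, a carboxylesterase of lipoprotein and lipid handling, had the smallest unadjusted p of all genes. Its levels were 10.09, 10.25 and 9.89 on the HFCC arrays and 7.71, 8.37 and 7.84 on the ND arrays. The nearest arrays of the groups were 1.52 units apart, and the rise was 2.10 (standard error 0.16, 4.3-fold, adjusted p = 0.00021). Its mean was 10.07 in HFCC, 9.37 in HFDC, 9.97 in HFGC and 10.11 in HF, against 7.97 in ND. It was chosen after its values were seen, as were Tmem41b, Cyb5b, Kctd7, Ildr2, Tlcd2, Gfpt1, Cyp2r1, Aldh1a1 and Atg7, which were called in each fit that left out 1 array. Tmem41b, a lipid scramblase of the endoplasmic reticulum, was at 9.45, 9.31 and 9.32 in the HFCC group and at 8.23, 8.39 and 8.24 in the ND group, and rose by 1.07 (adjusted p = 0.00021, 5 of 6 probe sets called). Cyb5b, a cytochrome b5 of the outer mitochondrial membrane, was at 11.49, 11.50 and 11.51 in the HFCC group and at 10.72, 10.75 and 10.72 in the ND group. It rose by 0.77 (adjusted p = 0.00021), and the arrays of each group lay close together. Cyp2r1, which makes 25-hydroxyvitamin D, rose by 1.03 (adjusted p = 0.0081), Gfpt1, the entry enzyme of the hexosamine pathway, by 1.08 (0.0081, 1 of 6 probe sets called), Aldh1a1, a retinal dehydrogenase, by 0.61 (0.0094) and Atg7, an autophagy enzyme, by 0.50 (0.005, 1 of 4 probe sets called). Ildr2 rose by 1.35 (0.0016), Tlcd2 by 1.26 (0.0081) and Kctd7 by 1.13 (0.00047, 1 of 2 probe sets called).

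**Figure D3:**
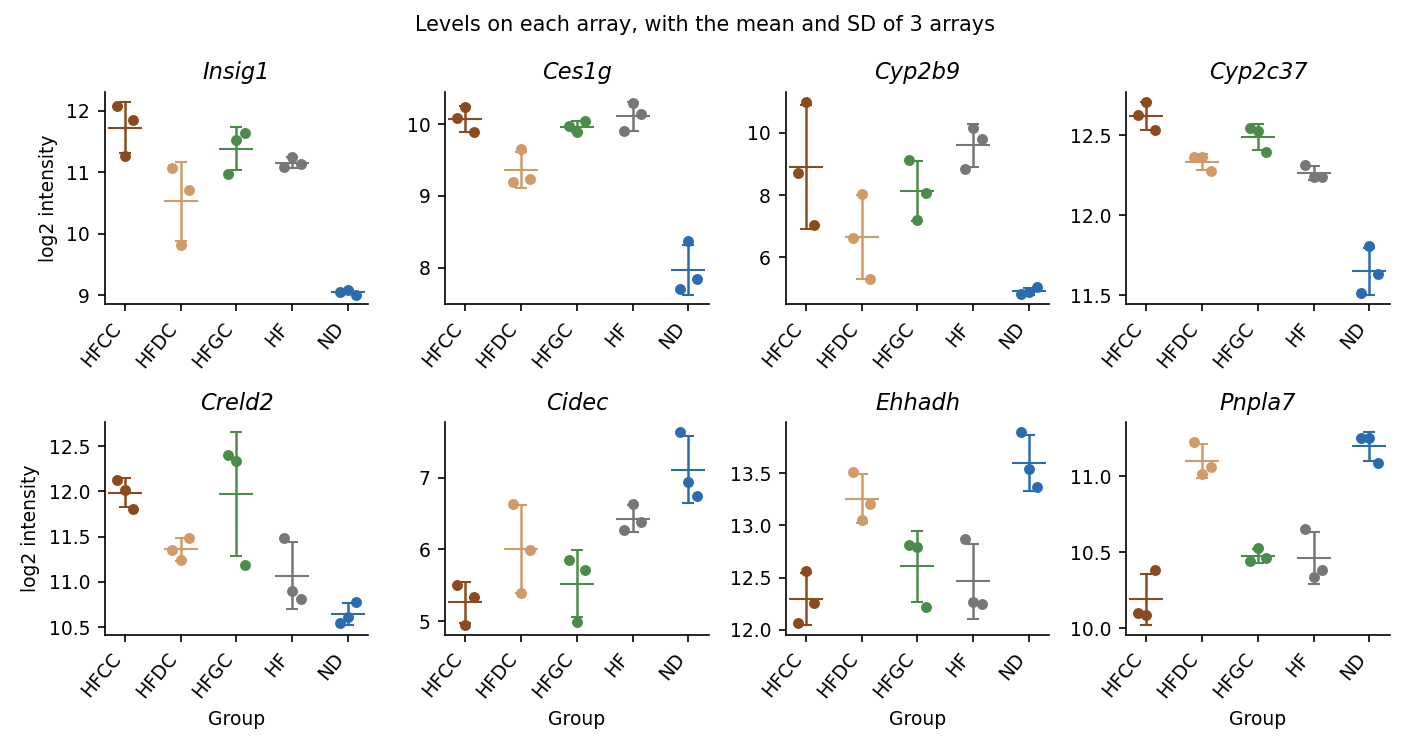
Log2 intensity of 8 genes on each array, by group from left to right HFCC, HFDC, HFGC, HF and ND; points are arrays, horizontal lines the mean and bars the SD of 3 arrays. In each panel the 3 HFCC points lie on 1 side of the 3 ND points, and the gap between the nearest arrays runs from 0.70 units for Pnpla7 to 2.18 units for Insig1.

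Ehhadh and Cyp4a31, enzymes of fatty acid oxidation outside mitochondria, fell. Of 24 measured genes of PPARa, peroxisomal and omega oxidation, 2 fell and 0 rose, with a median of -0.21 and 6 members above 0. The count was 1 without HFCC replicate 2, and 4 with the replicate number as a block. Ehhadh, the bifunctional enzyme of peroxisomal oxidation, had levels of 12.07, 12.56 and 12.26 on the HFCC arrays, against 13.89, 13.54 and 13.37 on the ND arrays. The groups did not overlap, and Ehhadh fell by 1.30 (standard error 0.19, 2.47-fold lower, adjusted p = 0.0066), a call that held in each fit that left out 1 array. Cyp4a31, a cytochrome of omega oxidation, was at 10.32, 9.78 and 10.02 in the HFCC group and at 11.40, 11.32 and 11.37 in the ND group, and fell by 1.32 (standard error 0.22, adjusted p = 0.013, lost without HFCC replicate 2, 0.061). Acot1, an acyl-CoA thioesterase, differed by -1.07 and was not called (adjusted p = 0.085). Of 18 genes of mitochondrial beta-oxidation, limma called 0 (7 at an unadjusted p under 0.05), with a median of -0.06, and of 4 genes of ketone body synthesis 0 (1 at an unadjusted p under 0.05).

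Proteins of lipid droplets and lipid transport moved both ways. Cidec, which fuses lipid droplets, had levels of 5.51, 4.95 and 5.33 on the HFCC arrays and 7.63, 6.94 and 6.75 on the ND arrays. It fell by 1.85 (standard error 0.31, 3.6-fold lower, adjusted p = 0.015), with 1.24 units between the nearest arrays, and the call was lost without HFCC replicate 2 (0.066). Its mean was 5.26 in HFCC, 6.01 in HFDC, 5.52 in HFGC and 6.42 in HF, against 7.11 in ND. Cd36, a fatty acid transporter, was at 9.93, 10.32 and 9.43 in the HFCC group and at 8.72, 9.35 and 8.41 in the ND group, and rose by 1.07 (adjusted p = 0.031), although the nearest arrays were only 0.08 apart. Fitm1, which helps droplets to form, rose by 1.12 (adjusted p = 0.023). The call of Cd36 was lost without any 1 of 4 arrays (adjusted p up to 0.12) and that of Fitm1 without any 1 of 5 (up to 0.085). Of 19 measured genes of lipid droplets and PPARg, these 3 were called, and the list had a median of 0.01. Plin4 differed by 0.53 (adjusted p = 0.11), Pparg by 0.57 (0.073) and Mogat1 by 0.40 (0.22), and none of these 3 was called.

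Among lipases, Pnpla7, a lysophospholipase of the patatin family, had levels of 10.10, 10.09 and 10.38 on the HFCC arrays and 11.25, 11.25 and 11.09 on the ND arrays. It fell by 1.00 (standard error 0.09, 2.01-fold lower, adjusted p = 0.00031). Mgll, which splits monoacylglycerol, fell by 0.71 (adjusted p = 0.038, lost without any 1 of 7 arrays), and these were the 2 called of 11 lipases. Elovl2, which elongates polyunsaturated fatty acids, was at 11.95, 12.09 and 12.09 in the HFCC group and at 12.86, 12.77 and 12.80 in the ND group. The groups were 0.68 apart at their nearest arrays, and Elovl2 fell by 0.77 (standard error 0.11, adjusted p = 0.0073), the 1 called of 12 genes of this kind. Fads1, of the same list, differed by 0.48 and was not called. Its other, dimmer probe set rose by 1.76 (0.0018 in the limma fit over all probe sets). Apoa4, an apolipoprotein of the particles that carry fat, was at 11.03, 10.78 and 10.95 in the HFCC group and at 12.56, 12.52 and 13.05 in the ND group. It fell by 1.79 (standard error 0.32, 3.46-fold lower, adjusted p = 0.018), lost without any HFCC replicate or ND replicate 3 (adjusted p up to 0.073). Apoc2, the activator of lipoprotein lipase, fell by 0.49 (adjusted p = 0.023, lost without any HFCC replicate), and Mttp, which loads lipid onto apolipoprotein B, by 0.47 (0.041, lost without any 1 of 8 arrays), so that 3 of 18 genes of lipoprotein assembly fell. Hsd17b11, a dehydrogenase of lipid droplets chosen after its values were seen, fell by 0.63 (adjusted p = 0.0057). Acss2, which activates acetate, rose by 0.78 (adjusted p = 0.033, lost without any 1 of 6 arrays) as the 1 called of 17 genes of fatty acid synthesis, and of 13 genes of triglyceride synthesis limma called 0 (3 at an unadjusted p under 0.05). Lpin2, of the triglyceride list, differed by 0.47. In the limma fit over all probe sets, a dimmer Lpin2 probe set rose by 0.73 (adjusted p = 0.042), and another differed by -0.41 (0.19).

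**Figure D4:**
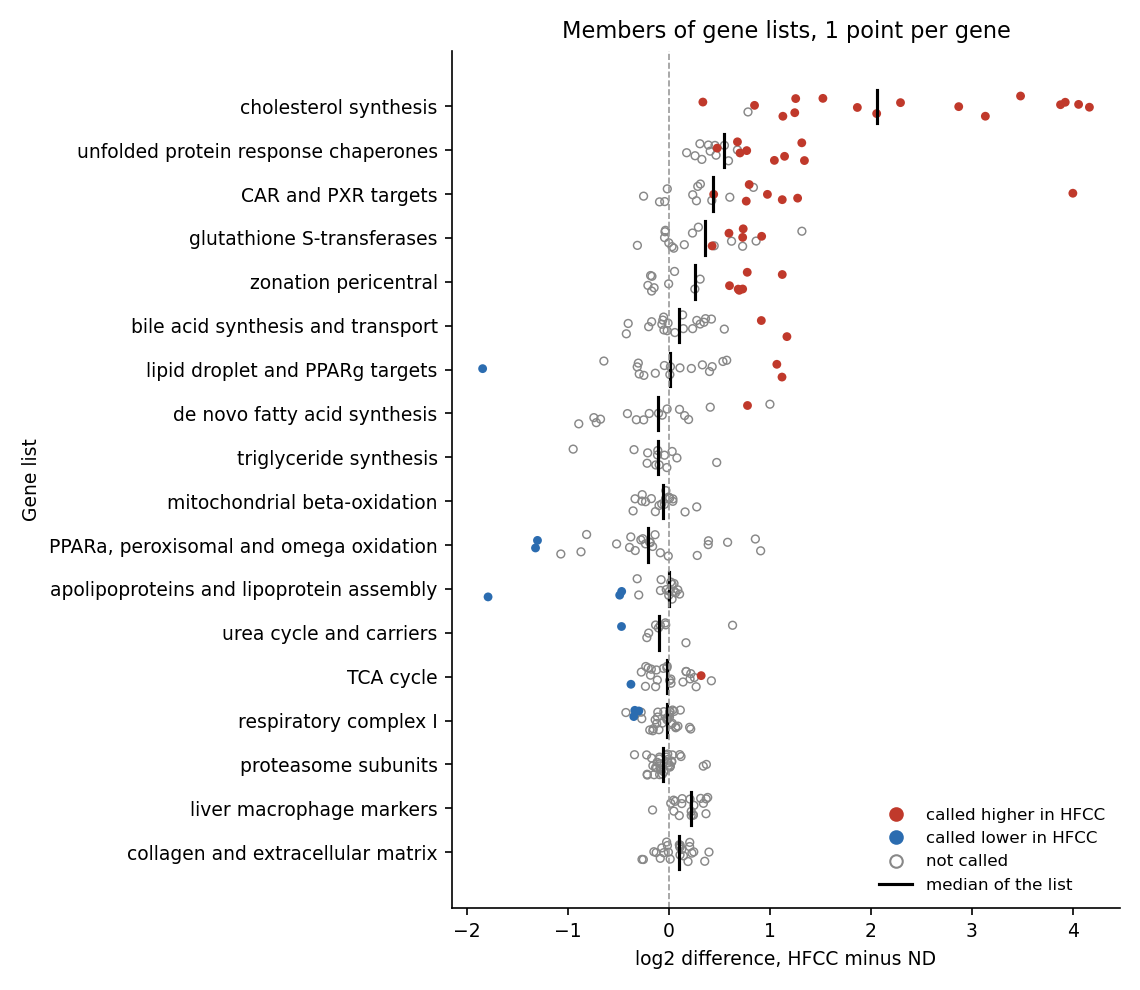
Each point is 1 gene of the list named on the left, placed by its log2 difference HFCC minus ND; red points were called higher and blue points lower in the HFCC group at an adjusted p under 0.05 by limma, open points were not called, and black bars are list medians. Cholesterol synthesis stands to the right with a median of 2.06, and the list of PPARa, peroxisomal and omega oxidation has the lowest median, -0.21.

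In bile acid and steroid handling, 2 of 22 genes rose. Abcc3, an export pump of bile acids and conjugates, was at 10.55, 10.70 and 10.55 in the HFCC group and at 9.47, 9.88 and 8.95 in the ND group, and rose by 1.17 (standard error 0.18, adjusted p = 0.0087), a call that held in each fit that left out 1 array. Akr1d1, the steroid reductase of bile acid synthesis, rose by 0.91 (adjusted p = 0.017), a call lost without HFCC replicate 1 or 2 (adjusted p up to 0.073). Cyp7a1, the first enzyme of bile acid synthesis, differed by -0.17 (adjusted p = 0.86). Of 15 genes that mark the zone around the central vein of the lobule, 6 rose and 0 fell, with a median of 0.26. They were Cyp2c38, Lect2, Gstm3, Slc1a2, Rhbg and Cyp1a2. Glul and Cyp2e1, enzymes that mark this zone most strongly, were not called (adjusted p = 0.98 and 0.66). The count was 1 without HFCC replicate 2 or with the HFCC and ND arrays alone, 2 without HFCC replicate 1 or without ND replicate 1, and 3 without HFCC replicate 3 or ND replicate 3. Of 12 genes of the zone around the portal vein, Cdh1, which encodes E-cadherin, fell by 0.94 (adjusted p = 0.023, lost without HFCC replicate 1 or 2 or ND replicate 1 or 3).

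Genes of secreted proteins and receptors were few among the calls. Enho, which encodes the peptide adropin, had levels of 8.91, 8.01 and 8.74 on the HFCC arrays and 6.98, 6.70 and 6.92 on the ND arrays. It rose by 1.69 (standard error 0.21, adjusted p = 0.0022), with HFCC replicate 2 lowest and no overlap. Lect2, a hepatokine, rose by 0.77 (adjusted p = 0.02, lost without HFCC replicate 2 or 3 or ND replicate 1), so that 2 of 22 hepatokines were called. Mbl2, a lectin of the complement system, rose by 0.59 (adjusted p = 0.0073), the 1 called of 32 genes of coagulation and complement. That share, 3.12%, was near the 2.28% of all genes. Lepr, the leptin receptor, was at 6.38, 6.00 and 6.42 in the HFCC group and at 8.46, 7.59 and 7.14 in the ND group. It fell by 1.46 (standard error 0.24, adjusted p = 0.013), lost without HFCC replicate 2 (0.062). In the fit over all probe sets, 2 further Lepr probe sets fell more, by 4.03 (adjusted p = 0.0018) and 3.82 (0.002), and 1 was not called (0.16). Ghr, the growth hormone receptor, rose by 0.44 (adjusted p = 0.041, lost without any 1 of 9 arrays), and with Cyp2b9 it made up the 2 called of 26 genes of the growth hormone axis. Lgals1, a lectin that rises in injured liver, was at 9.39, 10.09 and 9.23 in the HFCC group and at 7.67, 8.37 and 7.05 in the ND group, a rise of 1.88 (standard error 0.30, adjusted p = 0.0094). The tetraspanin Cd9 was at 7.29, 7.49 and 7.55 in the HFCC group and at 8.99, 8.30 and 8.51 in the ND group, and fell by 1.15 (standard error 0.16, adjusted p = 0.0043). These were the 2 called of 25 genes of the cytoskeleton and injury, and Tpm2, a tropomyosin that was not called, stood next with 1.37 (adjusted p = 0.055).

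Few genes of central metabolism were called. Arg2, the mitochondrial arginase, was at 4.16, 3.94 and 4.16 in the HFCC group and at 4.65, 4.53 and 4.52 in the ND group, near the low end of the array, and fell by 0.47 (adjusted p = 0.025, lost without any HFCC replicate or ND replicate 1). It was the 1 called of 10 genes of the urea cycle. The cycle's main enzymes were not called, with -0.13 for Arg1 (adjusted p = 0.64), 0.63 for Ass1 (0.28), -0.20 for Asl (0.69), -0.09 for Cps1 (0.75) and 0.17 for Otc (0.44). The Ass1 probe set was dim, with mean levels of 6.97 in the HFCC group and 6.35 in the ND group. Those of Arg1 were 13.36 and 13.49. Whether the Ass1 probe set follows the main transcript of the gene was not tested. On the TCA cycle list Ogdh, a subunit of oxoglutarate dehydrogenase, fell by 0.38 (adjusted p = 0.039). Idh1, also listed, rose by 0.32 (0.045), but it encodes the cytosolic isocitrate dehydrogenase, which lies outside the mitochondrial cycle. These were the 2 called of 25 genes, with calls lost without any 1 of 7 and 11 arrays. Sdhd differed by -0.27 and was not called, while its other, dimmer probe set fell by 0.40 (0.013 in the limma fit over all probe sets). Idh3a differed by -0.13 (adjusted p = 0.67). Of 34 genes of respiratory complex I, Ndufa8, Ndufs7 and Ndufa12 fell by 0.35, 0.34 and 0.30 (adjusted p = 0.036, 0.026 and 0.031), each lost without 5 or 6 of the 12 arrays. Of 34 of complexes III to V, Cox7a1, the muscle-type subunit of cytochrome oxidase, fell by 0.69 (0.031, lost without any HFCC replicate or ND replicate 1). Gys2, the glycogen synthase of liver, fell by 0.80 (adjusted p = 0.045) and Foxo1, a transcription factor of gluconeogenesis, by 0.31 (0.041), 2 of 16 genes. Pck1 and G6pc, enzymes of gluconeogenesis on that list, differed by 1.37 and 0.71. Their arrays did not overlap, and neither was called. The list had a median of -0.15, with 5 of 16 differences above 0. Aldoc, of the glycolysis list, differed by 1.03 without overlap and was not called, and 6 of 15 differences on that list were above 0. Ldha fell by 0.31 (0.042), the 1 called of 15 genes of glycolysis, and Grb14, which dampens the insulin receptor, by 0.46 (0.041), the 1 called of 17 genes of insulin signalling. The calls of Gys2, Foxo1, Ldha and Grb14 were lost in 11, 8, 9 and 9 of the 12 fits that left out 1 array. Agxt2 rose by 0.68 (adjusted p = 0.023, lost without HFCC replicate 1 or 2 or ND replicate 1), the 1 called of 34 genes of amino acid catabolism. The shares called in amino acid catabolism and in complexes III to V, 2.94% each, were near the 2.28% of all genes.

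Several groups had no called member by limma. These were the proteasome (0 of 34, 8 at an unadjusted p under 0.05), the circadian clock (0 of 19, 4), genes that respond to glucocorticoids (0 of 14, 1), immediate early genes (0 of 21, 6), acute phase proteins (0 of 22, 2), interferon-stimulated genes (0 of 24, 5), antigen presentation (0 of 12, 1), collagens and matrix (0 of 26, 5), the cell cycle (0 of 23, 1) and iron handling (0 of 17, 2). Hamp, which encodes hepcidin, varied most, with 4.01, 9.53 and 5.01 on the HFCC arrays and 9.90, 10.90 and 5.73 on the ND arrays, and the overlapping groups gave a difference of -2.66 (standard error 1.61, adjusted p = 0.43). Markers of other cell types gave 1 call in all. Of 19 macrophage markers 0 were called (1 at an unadjusted p under 0.05), with a median of 0.22 and summed intensities of 9053, 7647 and 15135 on the HFCC arrays and 9921, 10151 and 6509 on the ND arrays. HFCC replicate 3 had the highest sum, and the groups overlapped. Of 10 adipocyte markers 0 were called (2 at an unadjusted p under 0.05), while their sum was higher on the HFCC arrays, from 22455 to 23688, against 11512 to 19151 on the ND arrays. Most of that sum was Car3, which hepatocytes also express, with 14.04, 14.12 and 14.09 in the HFCC group and 13.60, 13.87 and 13.16 in the ND group (difference 0.54, adjusted p = 0.056). Cela1, an elastase listed as a pancreas marker that other tissues also express, rose by 1.07 (adjusted p = 0.0057). Its mean level was 9.16 in the HFCC group and 8.09 in the ND group. The sum of the 9 pancreas markers, which includes Cela1, lay between 927 and 1045 on the HFCC arrays and between 685 and 769 on the ND arrays. The median difference of these 9 was 0.035. Of 13 markers of stellate cells 0 were called (4 at an unadjusted p under 0.05), with a median of 0.16 and sums from 6162 to 6930 on the HFCC arrays and from 4918 to 5726 on the ND arrays. Markers of endothelial cells, cholangiocytes, T and NK cells, B cells, neutrophils, erythroid cells and muscle gave 0 calls (0 to 2 at an unadjusted p under 0.05 in each list), and their sums overlapped between the groups. The part of these cell types in the results was not tested.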

How the data were processed

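Liver RNA of 15 mice, 3 per group and 1 array per mouse, was measured on Affymetrix arrays. The deposited values are linear intensities that the authors obtained by RMA, which corrects background, normalizes by quantiles and summarizes probes. They carry no detection calls, so that fold changes of dim genes may be understated. Control probe sets (64) were left out, probe sets were named through the platform annotation (34945 of 45101 with 1 symbol, 932 with several, 9224 unnamed), and each of 18193 genes was represented by its brightest probe set on average. Probe sets of the _x_at type, whose probes may cross-hybridize, served only for the 100 genes that had no other. Of those with 1 symbol, 34741 matched the GRCm38.p6 gene table.

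The log2 values were fitted with limma 3.58.1 in R 4.3.3 (lmFit, eBayes) over the HFCC, HFDC, HFGC and ND arrays. HFCC minus HF came from a fit of all 15 arrays. The script was tested on simulated data. Samples came from separate mice by their labels, and the number of arrays limits the precision. The labels do not say what the replicate numbers mark, and the main fit did not pair the arrays by them.

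Named genes were the 12 largest called increases and 12 largest decreases without overlap, up to 4 called and 3 uncalled members of each list by size, and genes of the urea and TCA cycles and lipid droplets. Symbols of clones (Rik, Gm and a number, LOC, and accession-like symbols) were left out of the ranking of the 12 largest. Further members of the lists that are given by name, and genes outside them said to be so, were chosen after their values were seen. The groups, gene lists and tests were chosen with earlier results of these data known. The alternatives were averaged or all probe sets, a filter on dim genes, cyclic loess, an offset of 32, other sets of arrays, a replicate block, other variance and threshold settings, the 3' minus 5' covariate, and each array left out.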

Additional observations from a re-analysis of the deposited data

Results flagged for a closer look

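For 4 genes the change against ND differed between the HFCC and HFDC groups, by the limma contrast HFCC minus HFDC, in which the ND arrays cancel. Pnpla7, a lysophospholipase, had levels of 10.10, 10.09 and 10.38 on the HFCC arrays and 11.23, 11.02 and 11.06 on the HFDC arrays. The groups did not overlap and the difference was -0.909 (adjusted p = 0.0048). It was called without each HFCC or HFDC array in turn (adjusted p from 0.00161 to 0.0497) and with the replicate block (0.037), and not with the HFCC and HFDC arrays alone (0.068). Kctd7 was at 5.74, 5.65 and 6.01 in the HFCC group and at 4.93, 4.92 and 5.03 in the HFDC group, a difference of 0.837 (adjusted p = 0.020). It was lost without HFCC replicate 1 (0.089), HFCC replicate 2 (0.057), HFDC replicate 2 (0.075) or HFDC replicate 3 (0.088). Ildr2 was at 8.35, 8.46 and 7.96 in the HFCC group and at 7.02, 7.13 and 7.32 in the HFDC group, a difference of 1.105 (0.029), lost without the same 4 arrays (0.088 to 0.235). Tmem41b was at 9.45, 9.31 and 9.32 in the HFCC group and at 8.79, 8.47 and 8.64 in the HFDC group, a difference of 0.724 (0.020), lost without HFCC replicate 1 (0.0995), HFCC replicate 2 (0.104) or HFDC replicate 3 (0.088). With probe sets averaged per gene, Kctd7, Ildr2 and Tmem41b were not called (0.102, 0.0964 and 0.207), nor were they with the replicate block (0.0539, 0.0689 and 0.0539) or with the HFCC and HFDC arrays alone (0.0698, 0.0701 and 0.0701). These are 4 of 8 genes called between the groups (0.0440% of all), and the HFCC and HFDC feeds differ in more than caffeine.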

How the results depend on the processing

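The count of 415 genes called in HFCC against ND (257 higher, 158 lower) was 163 (120 and 43) with the HFCC and ND arrays alone, 920 (514 and 406) at an adjusted p under 0.10, and 193 (140 and 53) where a change of at least 1.5-fold was also asked for. Leaving out 1 array gave 104 to 488 genes in all, 71 to 306 higher and 28 to 183 lower. Members called over those fits were 10 to 16 in cholesterol synthesis, 3 to 7 among CAR and PXR targets, 2 to 6 glutathione S-transferases, 0 to 11 chaperones of the unfolded protein response, 1 to 3 in PPARa, peroxisomal and omega oxidation, and 1 to 6 pericentral genes. With the HFCC and ND arrays alone these were 3 CAR and PXR targets, 2 glutathione S-transferases and 1 pericentral gene, and an offset of 32 left 5 chaperones. A replicate block gave 428 genes, 342 of them among the 415, and 4 members in PPARa, peroxisomal and omega oxidation. Deviations of HFCC and ND arrays with the same replicate number correlated at -0.11, 0.054 and -0.065, and those with different numbers between -0.2 and 0.275. These few values cannot decide whether the numbers mark a shared litter or batch, which the labels do not say. The difference in the 3' minus 5' value was -0.02 without HFCC replicate 1 and ran up to 0.095 without other arrays. The cause of these shifts was not tested; with fewer arrays the fit has fewer degrees of freedom. Of the 415 genes, 302 were among 384 called with averaged probe sets, 333 among 492 at or above the median level, 379 among 431 after cyclic loess, 303 among 371 with the offset, 379 among 506 with all 15 arrays, 394 among 462 with trended and robust variances, and 319 among 375 with the 3' minus 5' covariate. The sign of no named call reversed in the settings run.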
